A study of Homo sapiens with 2 samples.

Results

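Lysosome and V-ATPase genes are the 50 genes listed by name for this account, of 20136 protein-coding genes in the annotation used. They comprise 14 genes of the V-ATPase, 23 of lysosomal hydrolases and their activators, 8 of lysosomal membrane, lipid export and sorting proteins, and 5 of regulators and autophagy proteins. A gene was counted as carrying an interval, that is, a stretch of the genome where the authors' peak caller found an excess of recovered DNA, if the authors' list assigned one to its symbol or to an older or newer alias. No measured value entered the choice of members, but earlier results of these data were known when they were chosen.

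The data are from U-87 MG, an established human malignant glioma cell line grown in serum-containing medium and engineered to overexpress sGCβ1, the beta-1 subunit of the nitric oxide receptor soluble guanylate cyclase (gene GUCY1B3). ChIP DNA was recovered with an antibody to sGCβ1, and a no-antibody input of the same overexpressing cells was sequenced beside it. Each of the 2 samples is a single library. No cells without the overexpressed subunit were included, and no file of the input was used here; whether the authors' peak caller took the input as its control is not stated. With 1 ChIP library no value has a replicate error and no test between conditions exists; shares below carry exact Clopper-Pearson 95% intervals, which cover counting error only.

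The lysosome is the acidic compartment in which cells break down proteins, lipids and sugars, and the V-ATPase is the proton pump that acidifies it. The pump has a membrane-embedded V0 sector, through which protons pass, and a cytosolic V1 sector, which hydrolyses ATP. Many lysosomal genes carry at their starts a short element with an E-box, the palindrome CACGTG, at its core, to which the transcription factors TFEB, TFE3 and MITF are known to bind.

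The sequences near the summits of the members' intervals are shown first because this E-box is a feature that most of them had. Each line gives a stretch of hg19 (GRCh37) within 100 bp of the summit with 12 bases on each side, read 5′ to 3′ on the strand of the named member, with E-boxes in capitals, for 13 of the 16 member intervals that held one. At LAMP1 and ATP6V0B the stretch spans all E-boxes in that window, and elsewhere it is the E-box nearest to the summit. The ATP6V0C stretch lies past the end of that gene and near the start of AMDHD2. The last line, GUSB, gives 30 bases at the summit of a tall interval that had no E-box within 100 bp.
KIAA0415, chr7:4815205-4815234, plus strand: catgtgatgcggCACGTGacgcagccacgt
LAMP1, chr13:113951350-113951429, plus strand: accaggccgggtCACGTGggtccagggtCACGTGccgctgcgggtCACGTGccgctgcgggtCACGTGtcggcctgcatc
CTSA, chr20:44519920-44519949, plus strand: gaggaagactgtCACGTGgcgccggagttc
CLN3, chr16:28503408-28503437, minus strand: aaaacctctgagCACGTGatgggggaacac
ATP6V0D1, chr16:67515102-67515131, minus strand: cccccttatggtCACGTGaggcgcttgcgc
ATP6V1G1, chr9:117349979-117350008, plus strand: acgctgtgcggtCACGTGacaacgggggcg
ATP6V0B, chr1:44440563-44440610, plus strand: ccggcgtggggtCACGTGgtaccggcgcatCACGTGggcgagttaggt
CLCN7, chr16:1525039-1525068, minus strand: cccgtcgcgcgtCACGTGgccgccggcgcg
MCOLN1, chr19:7587457-7587486, plus strand: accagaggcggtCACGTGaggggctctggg
GLA, chrX:100663156-100663185, minus strand: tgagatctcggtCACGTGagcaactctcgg
UVRAG, chr11:75525878-75525907, plus strand: tcccgcctcctgCACGTGacaccggagccc
ATP6V0C, chr16:2570348-2570377, plus strand: tcagctgaaggtCACGTGggcgcggtctca
ATP6V0E1, chr5:172410735-172410764, plus strand: cggcgcgcgggtCACGTGggggcgcgggag
GUSB, chr7:65447185-65447214, minus strand: tttcttagcgccgcagacggtggccgagcg

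The list held 4169 intervals, of which 26 were assigned to members. Height, the authors' maximum fragment density within an interval, had a median of 40 over the 26 member intervals and of 14 over all intervals. An interval carries the authors' score as well, minus 10 times log10 of the peak caller's p-value, whose median was 188 in member intervals and 99.2 in the full list. The read depth behind the list is unknown. The line is known to carry an abnormal karyotype, and neither copy number nor the specificity of the antibody was tested as a source of differences in height.

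Many members carried an interval, and most of these intervals lay at the start of the gene. Of the 50 members, 23 (46.0%, 95% interval 31.8 to 60.7) had an assigned interval, against 3086 of all 20136 protein-coding genes (15.3%). For 19 members (38.0%, 24.7 to 52.8) the summit lay within 1000 bp of the member's own start by the authors' distance, against 1379 of all genes (6.85%). The share near a start was 5.79% of all genes with a limit of 500 bp, at which the members' count was 19 as well. By class, intervals were assigned to 8 of 14 V-ATPase genes, 8 of 23 hydrolase genes, 5 of 8 membrane and sorting genes and 2 of 5 regulator and autophagy genes. These class sizes are small, and their 95% intervals overlapped one another.

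**Figure D1:**
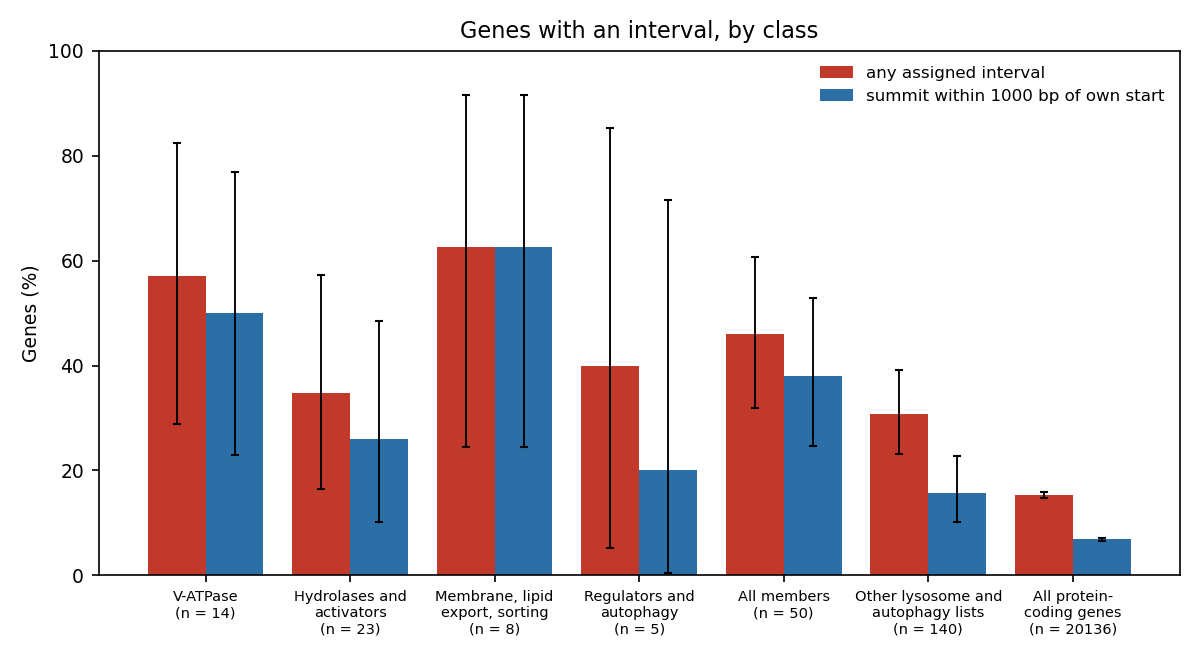
Bars give the percentage of genes with any assigned interval (red) and with a summit within 1000 bp of their own start (blue), for the 4 classes of members, all 50 members, the 140 genes of the other lysosome and autophagy lists and all 20136 protein-coding genes; error bars are exact 95% intervals for counting error. All members together stand at 46.0% and 38.0%, against 15.3% and 6.85% of all protein-coding genes.

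Members differed from other genes in the kind of start as well. A start was called CpG-rich if the 250 bp on each side of the canonical transcript start had at least 50% G and C and an observed to expected CpG ratio of at least 0.6. Of the members, 47 of 50 (94.0%) had such a start, against 13460 of 19856 genes with a canonical start (67.8%). Among genes with CpG-rich starts, 18 of 47 members (38.3%, 24.5 to 53.6) had a summit within 1000 bp, against 1287 of 13460 genes (9.56%). Whether the members' genes are more highly expressed than others in these cells was not tested.

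Member intervals were also tall. Of the 23 members with an interval, 13 (56.5%) had a tallest interval of height 40 or more, against 384 of the 3086 genes with an interval (12.4%). This cut was chosen with the values known and equals the median height of the 26 member intervals. The contrast at the cut is therefore no independent support. The median over these 23 members was 42, with a range from 12 to 185, against 15 over the 3086 genes, with a range from 9 to 263. In the ranking of all intervals by height, 4 of the 100 tallest were member intervals, against 26 of all 4169 intervals.

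The membrane and sorting class had the tallest intervals among the members. KIAA0415, now AP5Z1, encodes a subunit of the AP-5 adaptor complex of late endosomes, and its interval (chr7:4814316-4816120) had a height of 185, rank 19 in the list, with the summit 96 bp upstream of the start. LAMP1, an abundant glycoprotein of the lysosomal membrane, had an interval (chr13:113950515-113952063) of height 176, rank 24, and a score of 1862, the highest score of any member. Its summit lay 141 bp upstream of the start, and no other gene was assigned to it. Both intervals thus stood far above the upper quartile of 18 for all heights.

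Others of this class were of middle height. CLN3, a lysosomal membrane protein mutated in juvenile Batten disease, had a height of 81 with the summit at +135 bp, in a 5' UTR exon. CLCN7, the lysosomal chloride-proton exchanger, had 45 at +61 bp, also in a 5' UTR exon. MCOLN1, the lysosomal cation channel of mucolipidosis, had 42 at -40 bp. These 5 genes all had a height of 40 or more, while LAMP2, a second membrane glycoprotein, and the cholesterol exporters NPC1 and NPC2 had no interval.

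Among V-ATPase genes, intervals fell on both sectors of the pump. In the V0 sector 4 of 5 members had one, and in the V1 sector 4 of 8, against 15.3% of all protein-coding genes. Within 1000 bp of the member's own start it was 3 of 5 and 4 of 8, against 6.85% of all genes. Groups of 5 and 8 genes are too small for precise shares or for a contrast between the sectors. ATP6V0D1, the subunit that couples the sectors, was the tallest with a height of 76 and its summit 17 bp from the start (chr16:67514407-67515690). ATP6V1H, a regulatory V1 subunit, followed with 59 at -54 bp. Both ATP6V1G1, a stalk subunit, and ATP6V0B, of the proton-binding ring, were near the members' median, with heights of 47 at +54 bp and 45 at +6 bp.

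The remaining V-ATPase intervals were lower. ATP6V1C1, another stalk-region subunit, had a height of 30 at +128 bp, and ATP6V0E1, a small membrane subunit, had 19 at -11 bp. ATP6V1E1, a stalk subunit, had 2 intervals, of height 18 at +36 bp and of height 17 at -9628 bp, the second lying at -269 bp from the start of BCL2L13. For ATP6V0C, the ring subunit, the interval (height 20) lay 6431 bp from the start, just past the gene's end in the annotation, and 21 bp inside AMDHD2, whose start was nearer. No interval was assigned to ATP6V0A1, ATP6V1A, ATP6V1B2, ATP6V1D, ATP6V1F or the accessory protein gene ATP6AP1.

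Of the 23 hydrolase genes, 8 had an interval (34.8%, 16.4 to 57.3), against 15.3% of all protein-coding genes. In 6 (26.1%) it lay within 1000 bp of the start, against 6.85% of all genes. The cathepsins, the lysosomal proteases and their relatives, had one in 3 of 10 cases and within 1000 bp of the start in 2, while the other hydrolases and activators had one in 5 of 13. HEXA, the alpha chain of beta-hexosaminidase, which degrades gangliosides, had a height of 125 at +200 bp (chr15:72667539-72669202), an interval shared with C15orf34, whose start was nearer at -134 bp. CTSA, the protective carboxypeptidase, had 118 at +345 bp (chr20:44518593-44521788), where the start of NEURL2 was nearer, at -35 bp. GUSB, beta-glucuronidase, had 86 at +101 bp in an interval assigned to it alone.

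Lower hydrolase intervals followed. TPP1, a tripeptidyl peptidase, had a height of 42 at +52 bp, the one member interval near a start that overlapped no CpG island. GLA, alpha-galactosidase, had 38 at -167 bp on chromosome X, which held 25 intervals in all. The start of HNRNPH2 was nearer to that summit, at -23 bp. CTSL1, now CTSL, a cysteine protease, had 17 at +242 bp.

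Some hydrolase intervals lay away from the gene's start, and for PSAP and CTSB all of them did. PSAP, the precursor of the saposins that help degrade sphingolipids, had intervals of height 14 at +14986 bp, in an intron, and of height 12 at -9318 bp. CTSB, a cysteine protease, had one of height 12 at -9026 bp, and the second interval of CTSA, with a height of 23, lay 14857 bp downstream of the start and nearer to PLTP. No interval was assigned to CTSC, CTSD, CTSF, CTSH, CTSK, CTSS, CTSZ, GAA, GLB1, NAGLU, NEU1, SGSH, ASAH1, ARSA or ARSB.

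Of the 5 regulator and autophagy genes, 2 had an interval (40%, 5.27 to 85.3), against 15.3% of all protein-coding genes. With 5 genes this share is too imprecise to set apart from the 46% of all members. UVRAG, a component of a lipid kinase complex of autophagy and endosome traffic, had an interval of height 29 at -356 bp, where an uncharacterised transcript started nearer. SQSTM1, an autophagy receptor, had one of height 15 in an intron, 12692 bp from the start. None of the genes for TFEB, TFE3 and MITF had an interval, and the nearest ones lay 1892, 453 and 1133 kb away. Over all 27 members without an interval, the nearest one lay between 14.7 kb (CTSH) and 3033 kb (ARSA) from the gene, with a median of 124 kb.

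**Figure D2:**
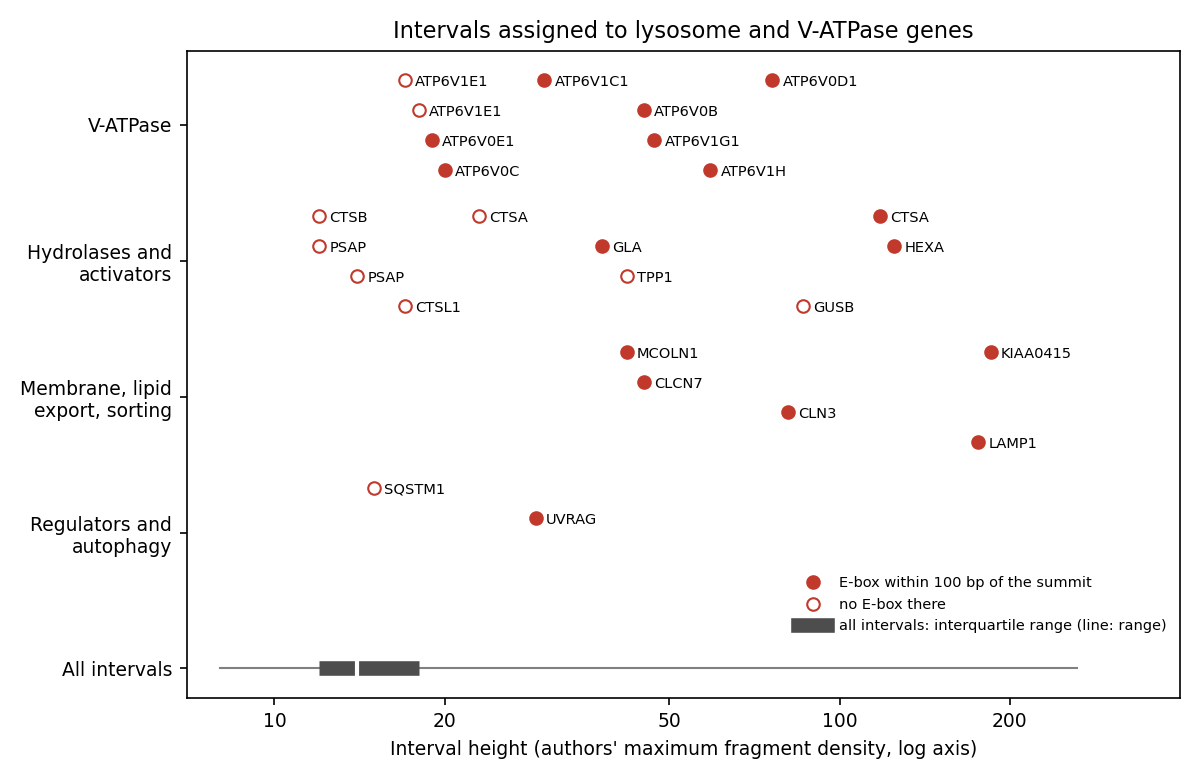
Each point is an interval assigned to a member, placed by height on a log axis and grouped by class; filled points have an E-box within 100 bp of the summit, and the grey bar gives the interquartile range (12 to 18) with a white tick at the median (14) and the line the range (8 to 263) of all 4169 intervals. Of the 26 points, 16 are filled, and KIAA0415 (185) and LAMP1 (176) stand highest.

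Intervals close to the start differed from distant ones in height. The 19 intervals within 1000 bp of the member's start had distances from -356 to +345 bp, with 17 of them within 250 bp, and heights from 17 to 185 with a median of 45. The 7 others lay at 6431 bp or more and had heights from 12 to 23 with a median of 15. By the annotation, 9 of the 19 summits were in 5' UTR exons, 2 in introns, 1 in a coding exon and 7 upstream of the gene. In 4 of the 19, and in 3 of the 7, the start of another assigned gene was nearer to the summit, so the assignment there is not to the member alone.

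**Figure D3:**
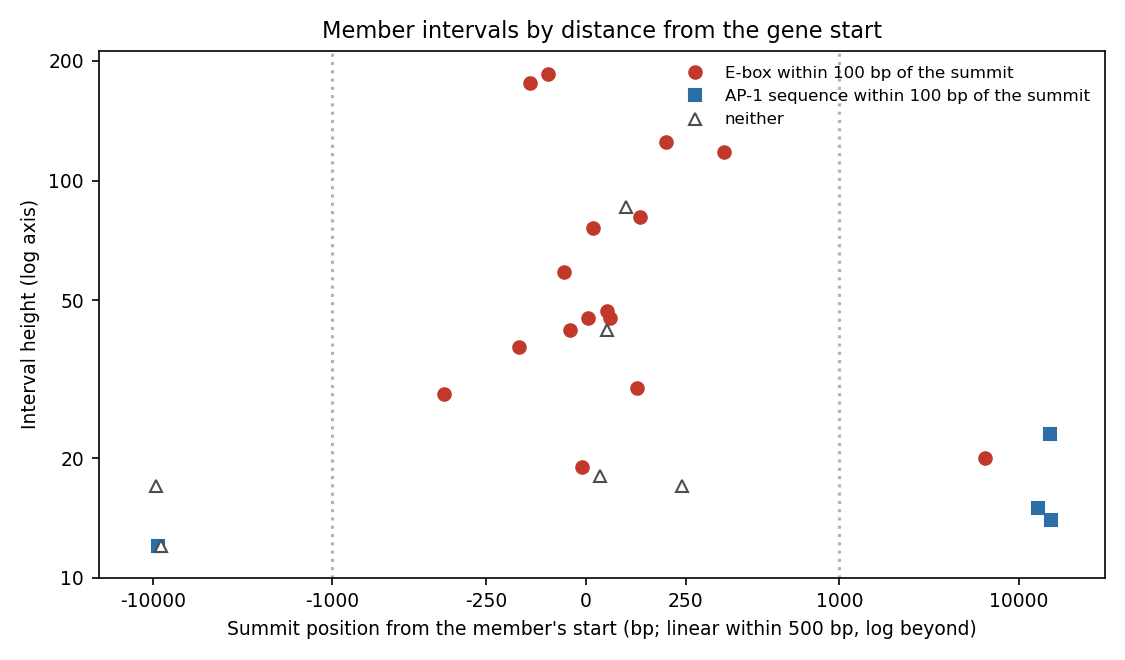
Each point is a member interval, with the position of its summit from the member's start on the horizontal axis (linear within 500 bp, log beyond; dotted lines at 1000 bp on each side) and its height on a log axis. The 19 intervals between the lines reach 185 in height, while the 7 outside stay at 23 or below; circles (E-box) lie mainly inside and squares (AP-1 sequence) only outside the lines.

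The E-box was frequent in member intervals. It was searched as CACGTG, which reads the same on both strands. Within 100 bp of the summit, 15 of 19 member intervals near the member's start held it (78.9%, 54.4 to 93.9), against 158 of 1183 other intervals near a protein-coding start (13.4%, 11.5 to 15.4). Over all positions, 16 of 26 member intervals held one (61.5%, 40.6 to 79.8), against 264 of 4143 other intervals (6.37%). All 5 intervals of the membrane and sorting class had an E-box, as did 6 of 7 V-ATPase intervals near the start. Among hydrolase intervals near the start it was 3 of 6, at HEXA, CTSA and GLA. Each of these 3 had another gene's start nearer to the summit. The hydrolase intervals there without an E-box, at GUSB, TPP1 and CTSL1, had no nearer start.

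GC content and height moved with this difference to some degree, while overlap with CpG islands was similar. Median GC content over the same window was 67.7% in the 19 member intervals and 63.2% in the 1183 others, and 18 of 19 overlapped a CpG island by the authors' count, against 93.3% of the others. Taking intervals of height 40 or more near a start, 11 of 13 member intervals held an E-box (84.6%), against 38 of 171 others (22.2%). Below a height of 40 it was 4 of 6 member intervals, against 120 of 1012 others (11.9%). The part of base composition in this difference was not tested beyond these values.

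E-boxes lay close to the summits. In member intervals near a start, 7 of 19 held an E-box that began within the 100 bp on the left and 9 of 19 within the 100 bp on the right of the summit in genome orientation. Between 100 and 300 bp on the right each bin of 100 bp had 1 of 19, and in all other bins out to 500 bp there was none, which with 19 intervals is a coarse count. In the 1183 other intervals the share was 7.86% and 7.52% in the bins beside the summit and fell to 1.78% and 1.69% in the outermost bins.

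**Figure D4:**
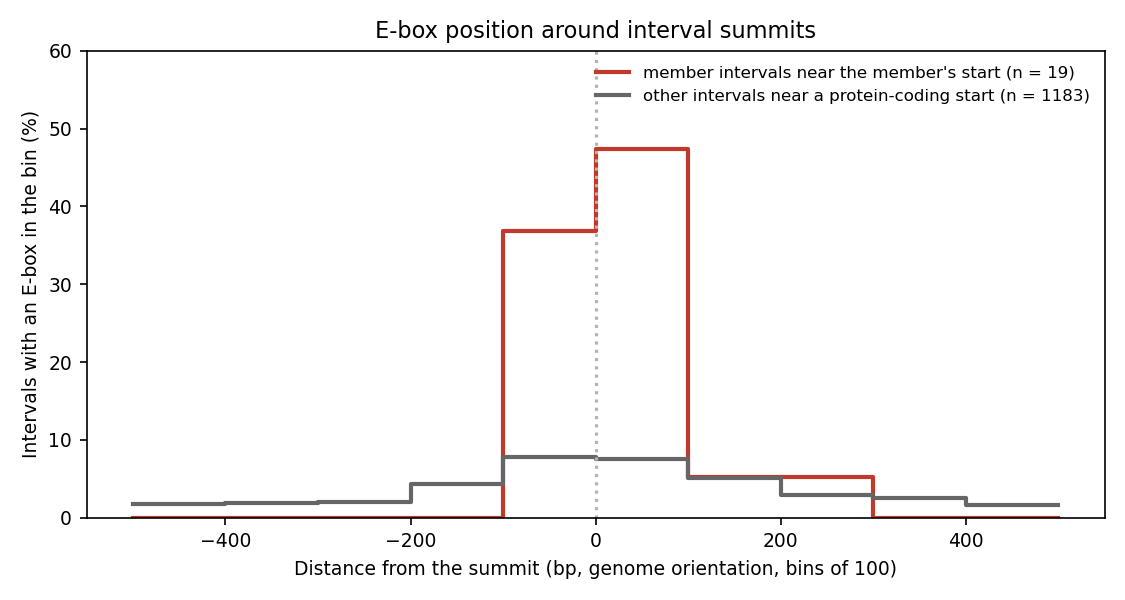
The lines give the percentage of intervals with an E-box beginning in each bin of 100 bp around the summit, for 19 member intervals near the member's start (red) and 1183 other intervals near a protein-coding start (grey). The red line stands at 36.8% and 47.4% beside the summit and the grey line at 7.86% and 7.52%.

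Many member intervals held E-boxes in rows. There were 31 E-boxes within 100 bp of the summit in the 16 member intervals that had any, and 11 of these intervals held 2 or more. Near a start, 10 of 19 member intervals held 2 or more (52.6%, 28.9 to 75.6), against 52 of 1183 others (95% interval 3.30% to 5.72%). The interval at LAMP1 and the one assigned to ATP6V0C, which lies at the start of AMDHD2, held 4 each. In the whole list 4 intervals held 4 or more, the other two being at RAD9A with 4 and at C7orf20, now GET4, with 6, both named after their values were seen.

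The spacing of neighbouring E-boxes and the bases beside them were read from the genome; the LAMP1 line above shows the densest row among members. In LAMP1 neighbouring E-boxes began 16, 17 and 17 bp apart. In the interval assigned to ATP6V0C, at the start of AMDHD2, they began 18, 17 and 32 bp apart. Over the 15 neighbouring pairs in member intervals the median was 18 bp (range 14 to 51), with 9 pairs at 14 to 20 bp, against a median of 30 bp (range 8 to 156) over 66 pairs in the other intervals near a start, with 18 pairs at 14 to 20 bp. This range was chosen after the values were seen. The E-box was preceded by GT on at least one strand, giving GTCACGTG, in 25 of 31 cases (80.6%) in member intervals, against 136 of 224 (60.7%) in other intervals near a start. Near a start, 15 of 19 member intervals held at least 1 of this longer form (78.9%), against 103 of 1183 other intervals (8.71%). Those are all 15 of the member intervals there with an E-box, against 103 of the 158 others with one.

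Median heights were greater in intervals with 2 or more E-boxes. Among member intervals near the start, the median height was 30 for the 4 with none, 30 for the 5 with 1 and 59 for the 9 with 2, and the single one with 4, at LAMP1, had 176. The other member interval with 4, assigned to ATP6V0C but 21 bp from the start of AMDHD2, had a height of 20 and did not follow this order. Over all 1204 intervals near a protein-coding start, which include the members', the medians were 15 for none, 18 for 1, 34 for 2 and 51 for 3. The tallest intervals near a start were mostly of another kind, since among the 171 non-member ones of height 40 or more the median was 54.5 for the 38 with an E-box and 91 for the 133 without. GUSB, at a height of 86, is the tallest member interval without an E-box near the summit.

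Looked at from the gene starts, an E-box and an interval went together. An E-box lay within 250 bp of the canonical start in 20 of 50 members (40%), against 2186 of 19856 genes (11.0%). Of these 20 members 13 (65.0%, 40.8 to 84.6) had a summit within 1000 bp of the start, against 288 of the 2186 genes (13.2%). Limited to CpG-rich starts with an E-box, the counts were the same 13 of 20 in members, against 281 of 1754 genes (16.0%). Of the 30 members without an E-box at the start, 6 (20%, 7.71 to 38.6) had a summit there, against 6.16% of all genes without one. These 6 include GLA and UVRAG, which had an E-box within 100 bp of the summit but none within 250 bp of the canonical start.

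An E-box was also present at some starts with no interval. Of the 27 members without an interval, 6 had one within 250 bp of the canonical start, namely CTSD, an aspartic protease, CTSF, a cysteine protease, GAA, which degrades glycogen, NAGLU and SGSH, which degrade heparan sulfate, and NEU1, a sialidase. GAA had 2 such E-boxes, as many as HEXA or CTSA.

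**Figure D5:**
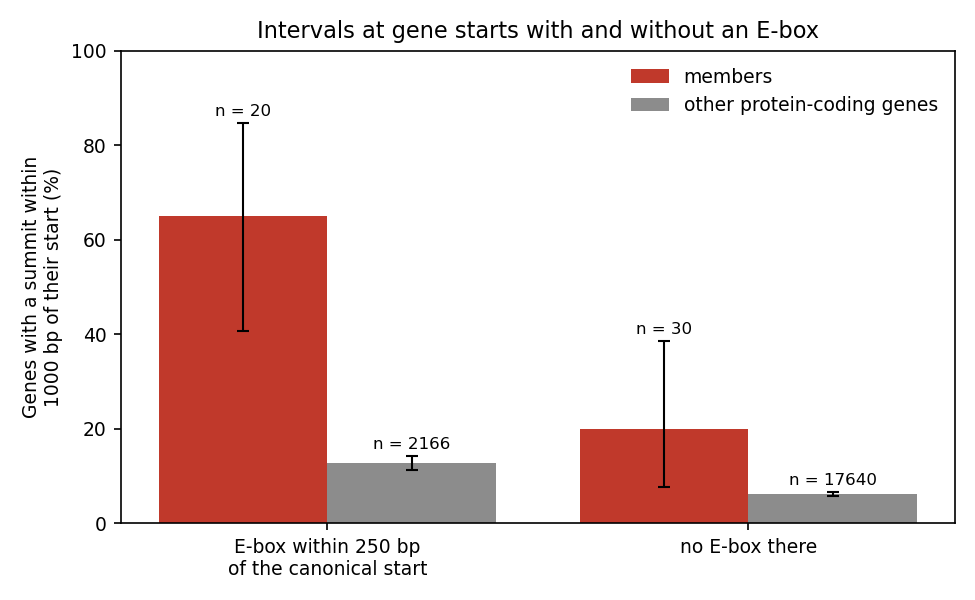
Bars give the percentage of genes with a summit within 1000 bp of their start, for members (red) and other protein-coding genes (grey), split by an E-box within 250 bp of the canonical start; error bars are exact 95% intervals for counting error and n is the number of genes. With an E-box the members stand at 65.0% and the other genes at 12.7%; without one they stand at 20% and 6.13%.

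Another sequence was searched in the distant member intervals. The AP-1 sequence TGACTCA, the target of the FOS and JUN factors, was searched on both strands (as TGAGTCA on the other one), a choice made after the values were seen. It lay within 100 bp of the summit in 4 of all 26 member intervals (15.4%), against 14.9% of other intervals. All 4, of which 2 belong to PSAP, were among the 7 away from the member's start (57.1%, 18.4 to 90.1), against 593 of 2960 other intervals away from a start. It was found in 4 of the 5 member intervals that were away from the start and off CpG islands, against 573 of 2625 other such intervals (21.8%), and in 0 of the 19 near the start, against 23 of 1183 (1.94%). With 5 intervals the 95% interval for the members is 28.4 to 99.5, and 3 of the 4 heights were 15 or less. The stretches below are on the member's strand with the sequence in capitals.
CTSA downstream, chr20:44534520-44534550, plus strand: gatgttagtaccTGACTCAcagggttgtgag
SQSTM1, chr5:179246097-179246127, plus strand: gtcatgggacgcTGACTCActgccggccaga
PSAP intron, chr10:73596120-73596150, minus strand: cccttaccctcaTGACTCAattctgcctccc
PSAP upstream, chr10:73620327-73620399, minus strand: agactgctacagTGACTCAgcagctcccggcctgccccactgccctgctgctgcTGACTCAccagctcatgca

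Other genes of the lysosome and of autophagy were counted from 5 further lists of 140 genes, written from general knowledge of the pathway. Of these, 43 (30.7%, 23.2 to 39.1) had an interval and 22 (15.7%, 10.1 to 22.8) had one within 1000 bp of the start. Both shares of the lists together lay below the members' 46.0% and 38.0% and above those of all genes (15.3% and 6.85%). The lists hold no members, and both the members and the lists were chosen with earlier results of these data known. The part of that choice in the gap between members and lists was not tested. Genes of mTORC1 signalling at the lysosome had an interval in 12 of 23 cases (52.2%, 30.6 to 73.2) and one near the start in 8 (34.8%). These shares were close to those of the members. The tallest in this list were RRAGC, a Rag GTPase (height 38, at -244 bp, with 1 E-box), FLCN, folliculin (36, at -138 bp), and RRAGB (27, at +82 bp, with 2 E-boxes). Other membrane and transport genes had one in 11 of 37, led by the cystine exporter gene CTNS (57, at +174 bp), PIP4P1, listed as TMEM55B (49, but 6277 bp from the start and nearer another one, with 3 E-boxes), and the tethering complex gene VPS33A (43, at +60 bp, with 2 E-boxes).

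Among the remaining lists, other hydrolase genes had an interval in 8 of 31 cases, led by SUMF1, the activator of sulfatases (50, at +70 bp, with 1 E-box), and GALNS, which encodes a sulfatase (39, at -146 bp, with another start nearer and 1 E-box). Core autophagy genes had one in 11 of 38, among them MAP1LC3B (128, but at -8153 bp and nearer another start), ATG3 (69, at -304 bp, with another start nearer and 2 E-boxes) and GABARAP (49, 7865 bp from the start and nearer another one, with 3 E-boxes). Of the 11 other V-ATPase genes, many of which encode forms limited to certain tissues, ATP6V0E2 alone had an interval, of height 16 at 1079 bp. In these lists 12 of the 22 intervals near a start held an E-box (54.5%), compared with 15 of 19 for the members.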

How the data were processed

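The members and the gene lists were chosen with earlier results of these data known. The series' design text states that 75-nt reads were aligned to hg19 with BWA, that unique alignments with at most 2 mismatches were kept, and that MACS called the intervals. The sources used here give neither versions nor the read total, and do not say whether the input served as control, so the depth is unknown. The peak and average values the authors deposited are density signals, and the deposited score is 10 times the negative log10 of the p-value from MACS. Other columns deposited by the authors count CpG islands, promoters and genes.

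Gene symbols were matched to GENCODE 44 (GRCh37, the build of the files) directly or through RefSeq aliases, within 100 kb of the gene; 3091 of 3677 listed symbols (84.1%) matched a protein-coding gene. Distances to starts are the authors'. Sequences were read from the GRCh37 genome with pysam 0.24.0 around the deposited summits, and the motif search was tested on simulated sequences. Python 3.11.15, pandas 2.3.3 and scipy 1.17.1 were used. All 50 members are named, with up to 3 genes of each other list, by height, and any gene whose start lies nearer to a member's summit; 1 gene set by this rule and 1 sequence are not reported here. The cut of height 40 was chosen with the values known. No set test and no comparison between samples was made. Alternatives were stronger parts of the list, other distances, assignments and motif windows.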

Additional observations from a re-analysis of the deposited data

How the results depend on the processing

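Of 38 recomputed values, 30 stayed close to those reported (counts within 1.5 times, medians and shares within their 95% intervals), 8 moved and 0 reversed. Among intervals in the upper quartile by score, 15 members (30%, against 4.79% of all genes), 5 V-ATPase members and 23 genes of the other lists had an interval, and 81.25% of member intervals held an E-box, against 20.4% of other intervals near a start. Among those at the median score or above, the other lists had 28 genes. Over all intervals, 22 genes of those lists had a summit within 1000 bp of the start. With the 8-letter palindrome TCACGTGA the share of member intervals was 34.6%, against 4.82% of other intervals near a start, and among intervals that overlap a CpG island the share with an E-box was 80.0%, against 13.5% of other such intervals near a start. These 8 changes follow from fewer intervals, a longer motif or a narrower set. Over the whole interval the E-box share was 65.4%, against 34.7% of other intervals near a start. Within 100 bp of the summit the same sets gave 61.5% and 13.4%, so the contrast is smaller over the whole interval. In all these E-box comparisons the member intervals lie at any position and the others near a start, so the sets are unlike. Of the alternatives, 5 were chosen after seeing the data, and all concern the E-box. No paired analysis was possible because there is 1 ChIP library. Without a read total, the effect of depth on these counts could not be examined.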
